A study of Rattus norvegicus with 36 samples.

Results

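The aryl hydrocarbon (Ah) receptor pathway was followed in cultured rat ovarian granulosa cells exposed to HPTE, the hydroxylated metabolite of the organochlorine pesticide methoxychlor. Its members were 7 genes of the 14217 named on the array, chosen by symbol: Ahr and Arnt for the receptor and its partner, and Cyp1a1, Cyp1b1, Tiparp, Aldh3a1 and Abcc3 for genes known to respond to it. They were read by 9 of the 31099 probe sets, with 2 probe sets each for Ahr and Tiparp. The cells came from follicles of immature Sprague Dawley rats 21 to 27 days old, rested for 24 h in medium with 5% serum, and were then kept for 48 h without serum in 0.1 µM androstenedione, which all groups received. They were given FSH at 3 ng/ml, cAMP at 1 mM or no stimulus (basal), each with 0, 1, 5 or 10 µM HPTE, on 36 arrays in 12 groups of 3. Whether the triplicates were cells of different rats or wells filled from 1 pool is not stated in the labels, so each p-value reflects only the spread between triplicates, which may be technical in part. In such cultures fewer cells of a type and less RNA per cell cannot be told apart.

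The Ah receptor is a ligand-activated transcription factor that waits in the cytoplasm in a complex with the chaperone Hsp90. After it binds a ligand such as dioxin it moves to the nucleus, pairs with Arnt and binds the dioxin response element, whose core reads GCGTG. Genes switched on in this way include the cytochromes P450 Cyp1a1 and Cyp1b1, which oxidise polycyclic aromatic hydrocarbons and estradiol, and Tiparp, an ADP-ribosyltransferase that in turn represses the receptor. In the ovary the receptor is known for its part in follicle growth, and granulosa cells make the estradiol that both enzymes can hydroxylate to catechol estrogens.

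Upstream sequence is shown for Cyp1b1 and Tiparp, because both are classical receptor targets with a strong signal on these arrays and their differences under HPTE had opposite signs. Each run is the 250 bases before the gene's start in RefSeq's annotation of the GRCr8 assembly, 5′ to 3′ on the gene's strand, with GCGTG or its reverse complement CACGC in capitals. Cyp1b1 lies on the plus strand and its run is chr6:21094315-21094564. Tiparp is also on the plus strand and its run is chr2:152063519-152063768.
Cyp1b1: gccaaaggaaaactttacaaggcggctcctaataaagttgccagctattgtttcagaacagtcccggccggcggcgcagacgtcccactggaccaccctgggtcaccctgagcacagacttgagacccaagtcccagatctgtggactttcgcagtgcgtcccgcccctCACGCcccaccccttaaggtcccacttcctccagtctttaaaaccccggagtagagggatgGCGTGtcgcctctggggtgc
Tiparp: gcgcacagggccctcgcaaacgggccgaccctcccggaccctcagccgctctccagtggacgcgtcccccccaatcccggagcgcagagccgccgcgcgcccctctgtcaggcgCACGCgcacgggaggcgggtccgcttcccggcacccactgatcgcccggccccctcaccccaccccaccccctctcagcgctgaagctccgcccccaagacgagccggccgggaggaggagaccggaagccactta
The Cyp1b1 run held 2 matches to GCGTG, 1 on each strand, and the match nearer the start also fitted the longer form TNGCGTG. The Tiparp run held 1 match to GCGTG, and none to TNGCGTG. Both strands were searched, and every match to TNGCGTG is also a match to GCGTG. Of 33469 rat promoters of the same length, 25.9% held GCGTG and 4.09% held TNGCGTG. The upstream runs of 4 of the 7 genes were in the table. Arnt held 1 GCGTG and 2 overlapping matches to TGACG, part of the cAMP response element, which 18.2% of promoters held. Ahr held neither motif in this window. Cyp1a1, Aldh3a1 and Abcc3 were not in the table.

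All levels are log2 of the deposited array intensity, and all differences are log2 ± standard error from 1 limma fit over 12 groups with 3 arrays each. A difference passed at a Benjamini-Hochberg adjusted p under 0.05 over 31042 probe sets. Median intensities lay between 65.8 and 73.7 per array, and arrays of a group correlated at 0.95 to 0.994. The arrays numbered 2 of the FSH and cAMP groups without HPTE went against their labels. Aromatase, Cyp19a1, read 11.49, 7.48 and 11.46 in the libraries labelled FSH and 7.62, 11.01 and 6.46 in those labelled cAMP. The luteinizing hormone receptor, Lhcgr, split the same way, with 10.27, 5.94 and 11.50 in the libraries labelled FSH and 5.66, 10.05 and 5.80 in those labelled cAMP. Most calls and list counts described below that use these groups are therefore also given without both arrays. Ahr, Arnt, Cyp1a1 and Aldh3a1 gave no call in the 5 main comparisons without them either. The arrays numbered 3 also stood apart, since their Gapdh signal from the 3′ end exceeded that from the 5′ end by only 0.77 to 1.07 log2, against 1.61 to 2.40 in the others. Equal numbers mostly deviated together across groups, though in some comparisons unlike numbers correlated as highly. A fit with the number as a block is given where it changes a call. The 9 granulosa markers summed to intensities of 22300 to 53600 per array, and the 9 markers of macrophages and leukocytes to 426 to 3200.

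Of the 7 genes, Cyp1b1 was called higher at 10 µM HPTE with FSH and in basal cells, but not with cAMP. Both calls were lost in some fits. Abcc3 was called higher with cAMP than in basal cells, a call lost in a fit of these groups alone. Each was the 1 member called, where 8.45%, 1.02% and 7.18% of all probe sets were called. The receptor, its partner, Cyp1a1 and Aldh3a1 passed in none of the 5 main comparisons. These are 10 against 0 µM HPTE under each stimulus and each stimulus against basal cells at 0 µM. Tiparp, also a target, had lower values at 10 µM that passed only in some fits. The plot of array values shows all 7 genes on the same span.

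**Figure D1:**
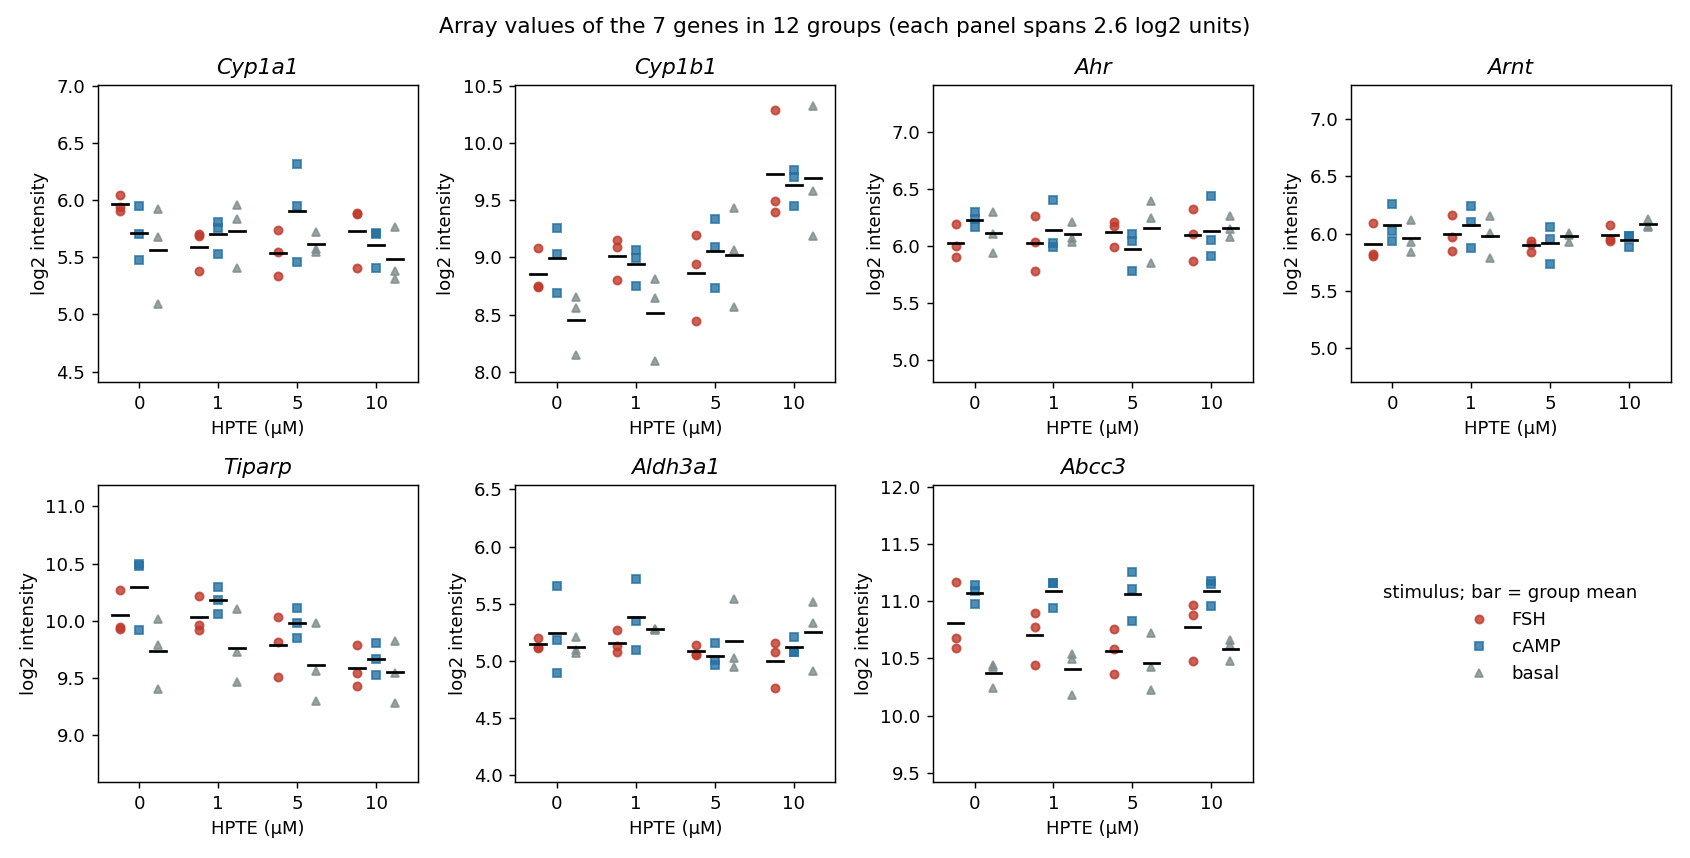
Log2 intensity of the 7 genes (the brighter probe set where there are 2) at 0, 1, 5 and 10 µM HPTE with FSH (circles), with cAMP (squares) and in basal cells (triangles); each point is 1 array, bars are means of 3, and every panel spans 2.6 log2 units. Cyp1b1 is highest at 10 µM with FSH, with cAMP and in basal cells. The cAMP arrays of Abcc3 lie above its basal arrays at every dose. Group means of Tiparp are lowest at 10 µM with FSH, with cAMP and in basal cells, though its basal arrays at 10 and 0 µM overlap. The other 4 genes stay within 0.48 log2 over their group means.

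The receptor and its partner lay near the middle of the array's intensities and varied little. Ahr, the receptor itself, read by its brighter probe set, had group means between 5.98 in cAMP cells at 5 µM and 6.23 in cAMP cells at 0 µM. Its 36 arrays covered 5.78 to 6.44, and all 11 neighbouring pairs of groups in the order of means overlapped. Its median rank in an array was the 50.2 percentile of all probe sets.

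At 10 µM HPTE the receptor differed little from unexposed cells. The log2 difference of Ahr was 0.07 with FSH, -0.10 with cAMP and 0.05 in basal cells, and the 95% intervals of these differences ran from -0.42 at the lowest to 0.40 at the highest. The second probe set of Ahr was dimmer, at the 10.8 percentile, with group means of 4.42 to 4.80. Its largest difference by dose was -0.38 ± 0.12 at 5 against 0 µM with cAMP (limma adjusted p = 0.54), and the first probe set read 5.98 and 6.23 in these groups.

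Arnt, the partner that the receptor needs to bind DNA, had group means of 5.90 to 6.09, the narrowest span of the 7 genes at 0.19. Its log2 difference at 10 against 0 µM was 0.08 with FSH, -0.13 with cAMP and 0.12 in basal cells, with intervals reaching at most 0.37 in either direction. Neither stimulus alone moved it past the test, at -0.06 for FSH and 0.11 for cAMP against basal cells.

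Cyp1a1, the P450 enzyme most often used to report receptor activity, gave no call in these cells. At 10 µM HPTE its arrays read 5.88, 5.89 and 5.41 with FSH, against 5.94, 5.90 and 6.05 without HPTE. With cAMP they read 5.70, 5.40 and 5.72 at 10 µM, against 5.95, 5.48 and 5.70 at 0 µM. In basal cells they read 5.76, 5.31 and 5.38 at 10 µM, against 5.92, 5.67 and 5.09 at 0 µM. Only the FSH groups did not overlap, with the HPTE arrays lower. The differences were -0.24 ± 0.20 with FSH, -0.10 ± 0.20 with cAMP and -0.08 ± 0.20 in basal cells, with limma adjusted p of 0.73, 1.00 and 1.00, and no 95% interval at 10 µM reached above 0.34. Its median rank was the 41.5 percentile, so these intervals describe a probe set below the middle of the array and not the presence or absence of the transcript.

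Cyp1b1, a P450 enzyme that forms 4-hydroxyestradiol, was the member with the widest range, and its highest 3 group means were the 3 groups at 10 µM HPTE. In FSH cells the arrays read 9.08, 8.75 and 8.74 at 0 µM, 9.15, 8.80 and 9.09 at 1 µM, 8.94, 8.44 and 9.20 at 5 µM, and 9.50, 9.40 and 10.29 at 10 µM. In cAMP cells they read 9.26, 8.69 and 9.03 at 0 µM, 9.07, 8.75 and 9.00 at 1 µM, 9.34, 8.73 and 9.09 at 5 µM, and 9.70, 9.45 and 9.76 at 10 µM. In basal cells they read 8.55, 8.15 and 8.65 at 0 µM, 8.65, 8.09 and 8.81 at 1 µM, 9.06, 8.57 and 9.43 at 5 µM, and 9.58, 9.19 and 10.32 at 10 µM. Under each stimulus the arrays at 10 µM lay above all arrays at 0 µM, and each was above the array of its own number.

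The rise of Cyp1b1 passed in FSH cells and in basal cells. With FSH it was the 1 member called of 7, where 8.45% of all probe sets were called, and the difference was 0.87 ± 0.27 (1.83-fold, limma adjusted p = 0.041). In basal cells it was again the 1 member called, where 1.02% of all probe sets were called, and the difference was 1.25 ± 0.27 (2.37-fold, limma adjusted p = 0.0149). With cAMP no member was called, where 1.69% of all probe sets were, and Cyp1b1 differed by 0.64 ± 0.27 (1.56-fold, limma adjusted p = 0.39). There 2 members had an unadjusted p under 0.05, as had 2907 of all 31042 probe sets. The fit with array number as a block gave adjusted p of 0.000282 with FSH, 0.0161 with cAMP and 1.56e-05 in basal cells, so the cAMP difference passed in that fit.

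Both calls rested on few arrays. Without the arrays numbered 2 that went against their labels, the FSH difference was 0.82 (adjusted p = 0.117), the cAMP difference 0.49 (adjusted p = 0.527), and the basal difference kept its call (adjusted p = 0.0147). With array weights the FSH difference was 0.72 (adjusted p = 0.098). The FSH call was also lost without array 2 at 0 µM (0.82, adjusted p = 0.122), without array 3 at 0 µM (0.81, adjusted p = 0.14) and without array 3 at 10 µM (0.59, adjusted p = 0.327). The basal call was lost without array 2 at 0 µM (1.09, adjusted p = 0.124) and without array 3 at 10 µM (0.93, adjusted p = 0.153). On the arrays numbered 1 and 2 alone the differences were 0.53 with FSH and 1.03 in basal cells, with adjusted p of 0.366 and 0.123.

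**Figure D2:**
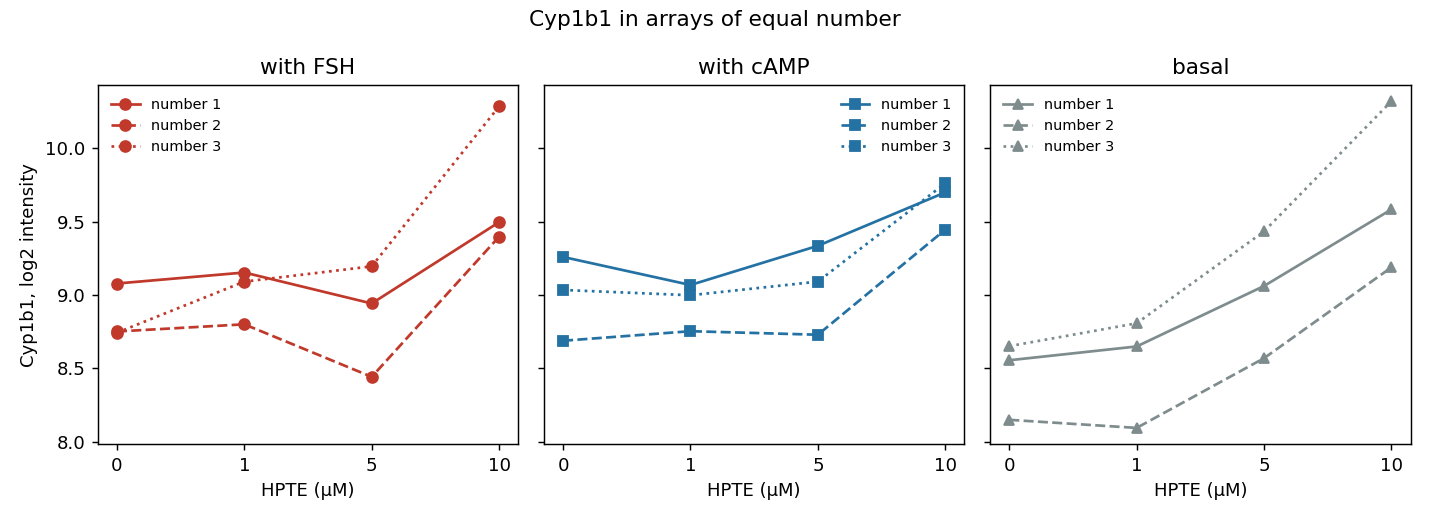
Cyp1b1 log2 intensity against HPTE dose (0, 1, 5 and 10 µM, evenly spaced) with FSH, with cAMP and in basal cells; each line joins the 4 arrays of 1 number. All 9 lines end above their start, and the arrays numbered 3 with FSH and in basal cells end highest, at 10.29 and 10.32.

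The dose steps of Cyp1b1 below 10 µM were small with a stimulus. At 5 against 0 µM the difference was 0.00 ± 0.27 with FSH and 0.06 ± 0.27 with cAMP, while basal cells differed by 0.57 ± 0.27 with 3 of 3 pairs higher (limma adjusted p = 1.00). At 10 against 5 µM, a comparison added after the data were seen, the difference was 0.87 ± 0.27 with FSH, 0.58 ± 0.27 with cAMP and 0.68 ± 0.27 in basal cells. Of these, the FSH step passed only with the array number as a block (adjusted p = 0.0109, against 0.628 without it), where the groups at 10 and 5 µM did not overlap.

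The size of the Cyp1b1 response was not shown to differ between stimuli. The HPTE effect with FSH minus that in basal cells was -0.38 (95% interval -1.16 to 0.40), and with cAMP minus basal it was -0.61 (95% interval -1.39 to 0.18). With the arrays numbered 2 left out these were -0.43 and -0.76, with adjusted p of 0.961 and 0.746. Before HPTE, Cyp1b1 was 0.41 ± 0.27 higher with FSH and 0.54 ± 0.27 higher with cAMP than in basal cells, and both sets of stimulated arrays lay above all basal arrays. Neither passed (adjusted p = 0.586 and 0.332), though the cAMP value passed with the array number as a block (adjusted p = 0.0231) and with array weights (0.87, adjusted p = 0.00351). The differences without the arrays numbered 2 were 0.46 for FSH and 0.70 for cAMP (adjusted p = 0.592 and 0.203). Both comparisons share the basal arrays. At 10 µM the means were 9.73 ± 0.49 with FSH, 9.64 ± 0.17 with cAMP and 9.70 ± 0.58 in basal cells (SD, n = 3 each), and the groups overlapped. In the order of all 12 group means, from 9.73 in FSH cells at 10 µM to 8.45 in basal cells at 0 µM, 10 of 11 neighbouring pairs overlapped, the exception being cAMP cells at 10 µM and at 5 µM.

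Over the 12 group means, the genes most like Cyp1b1 were Extl3, a glycosyltransferase of heparan sulfate synthesis (Pearson r = 0.94), Cab39, a scaffold of the kinase LKB1 (r = 0.94), and Hspa9, the mitochondrial heat shock protein mortalin (r = 0.94). The 12 means share arrays and doses, so these values are a description. Their group means spanned 0.27, 0.41 and 0.87 log2, against 1.28 for Cyp1b1.

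Tiparp, whose protein ADP-ribosylates and represses the Ah receptor, had lower values at 10 µM HPTE, the opposite direction to Cyp1b1. In FSH cells its brighter probe set read 9.54, 9.43 and 9.79 at 10 µM, against 9.95, 10.27 and 9.93 at 0 µM. In cAMP cells it read 9.53, 9.67 and 9.81 at 10 µM, against 10.48, 9.92 and 10.50 at 0 µM. In basal cells it read 9.54, 9.28 and 9.83 at 10 µM, against 9.41, 9.79 and 10.02 at 0 µM. The exposed arrays lay below all unexposed arrays with FSH and with cAMP, and overlapped with them in basal cells.

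The difference of Tiparp was -0.47 ± 0.20 with FSH, -0.63 ± 0.20 with cAMP and -0.19 ± 0.20 in basal cells, with limma adjusted p of 0.183, 0.125 and 1.00. With the array number as a block the FSH and cAMP values passed (adjusted p = 0.0214 and 0.00516). The cAMP value also passed with array weights (-0.74, adjusted p = 0.00487). Without the arrays numbered 2 that went against their labels, the cAMP difference was -0.82 and passed (adjusted p = 0.0274), and the FSH difference was -0.35 (adjusted p = 0.476). The second probe set had the same direction, at -0.60 ± 0.34 with FSH, -0.80 ± 0.34 with cAMP and -0.51 ± 0.34 in basal cells, and cAMP passed with the block (adjusted p = 0.026) and with array weights (-0.95, adjusted p = 0.0472). The HPTE effect on the brighter probe set with cAMP minus that in basal cells was -0.45 (95% interval -1.01 to 0.12), so a difference between stimuli was not shown.

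By dose, Tiparp group means in cAMP cells were 10.30 ± 0.33 at 0 µM, 10.18 ± 0.12 at 1 µM, 9.98 ± 0.13 at 5 µM and 9.67 ± 0.14 at 10 µM (SD, n = 3). In FSH cells they were 10.05 ± 0.19, 10.03 ± 0.16, 9.79 ± 0.26 and 9.59 ± 0.19 over the same doses. All 11 neighbouring pairs in the order of its 12 group means overlapped. Without HPTE, Tiparp was 0.56 ± 0.20 higher with cAMP than in basal cells (1.48-fold, adjusted p = 0.0897), with 3 of 3 pairs higher. This passed with the block (adjusted p = 0.00548), after quantile normalization (adjusted p = 0.0404), with array weights (0.63, adjusted p = 0.00243) and without the arrays numbered 2 (0.75, adjusted p = 0.0211). The second probe set differed by 0.45 ± 0.34 (adjusted p = 0.65) and passed in no alternative fit. At 10 µM the difference of the brighter probe set was 0.12 ± 0.20.

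Abcc3, an efflux transporter of glucuronide conjugates and bile salts, differed between cAMP and basal cells and was not called for HPTE. Without HPTE its arrays read 10.59, 11.17 and 10.68 with FSH, 11.09, 10.97 and 11.14 with cAMP, and 10.44, 10.42 and 10.24 in basal cells. At 10 µM HPTE they read 10.88, 10.96 and 10.47 with FSH, 11.14, 11.18 and 10.95 with cAMP, and 10.47, 10.66 and 10.61 in basal cells. The cAMP arrays lay above all basal arrays at each of the 4 doses, while FSH arrays overlapped with basal ones at 1, 5 and 10 µM.

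The higher level of Abcc3 with cAMP passed at 0, 1 and 5 µM. Without HPTE it was 0.70 ± 0.16 (1.62-fold, limma adjusted p = 0.00515), the 1 member called of 7, where 7.18% of all probe sets were called. It was 0.68 ± 0.16 at 1 µM (adjusted p = 0.00555, 8.71% of probe sets called), 0.61 ± 0.16 at 5 µM (adjusted p = 0.0158, 8.08% called) and 0.51 ± 0.16 at 10 µM (adjusted p = 0.0625, 6.18% called). The value at 10 µM passed with the array number as a block (adjusted p = 0.00271). The call without HPTE held when any 1 of its 6 arrays was left out, and without the arrays numbered 2 (adjusted p = 0.00478), but not in a fit of these groups alone (adjusted p = 0.059).

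At 1 µM the Abcc3 call was lost without basal array 3 (0.57, adjusted p = 0.0527). At 5 µM it was lost without basal array 1 (0.59, adjusted p = 0.0584), basal array 3 (0.49, adjusted p = 0.118), cAMP array 1 (0.59, adjusted p = 0.0549) or cAMP array 2 (0.51, adjusted p = 0.106).

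With FSH alone no member was called, where 8.06% of all probe sets were. An unadjusted p under 0.05 was found for 5009 of all 31042 probe sets and for 1 member. That was Abcc3, at 0.45 ± 0.16 (adjusted p = 0.107), which passed with the block (adjusted p = 0.00717) and was 0.27 without the arrays numbered 2 (adjusted p = 0.561). At 10 against 0 µM HPTE, Abcc3 differed by -0.04 with FSH, 0.03 with cAMP and 0.22 in basal cells, with 95% intervals of -0.37 to 0.29, -0.31 to 0.36 and -0.12 to 0.55. The FSH and cAMP differences without the arrays numbered 2 were 0.14 and -0.02. The basal arrays at 10 µM all lay above those at 0 µM, but the difference had an adjusted p of 1.00.

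Aldh3a1, an aldehyde dehydrogenase and receptor target in liver and hepatoma cells, was dim, at the 26.5 percentile of an array. Its group means lay between 5.00 in FSH cells at 10 µM and 5.39 in cAMP cells at 1 µM, and its arrays between 4.77 and 5.71. At 10 against 0 µM the differences were -0.15 with FSH, -0.12 with cAMP and 0.13 in basal cells, with intervals between -0.49 and 0.48. All 11 neighbouring pairs of groups overlapped.

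**Figure D3:**
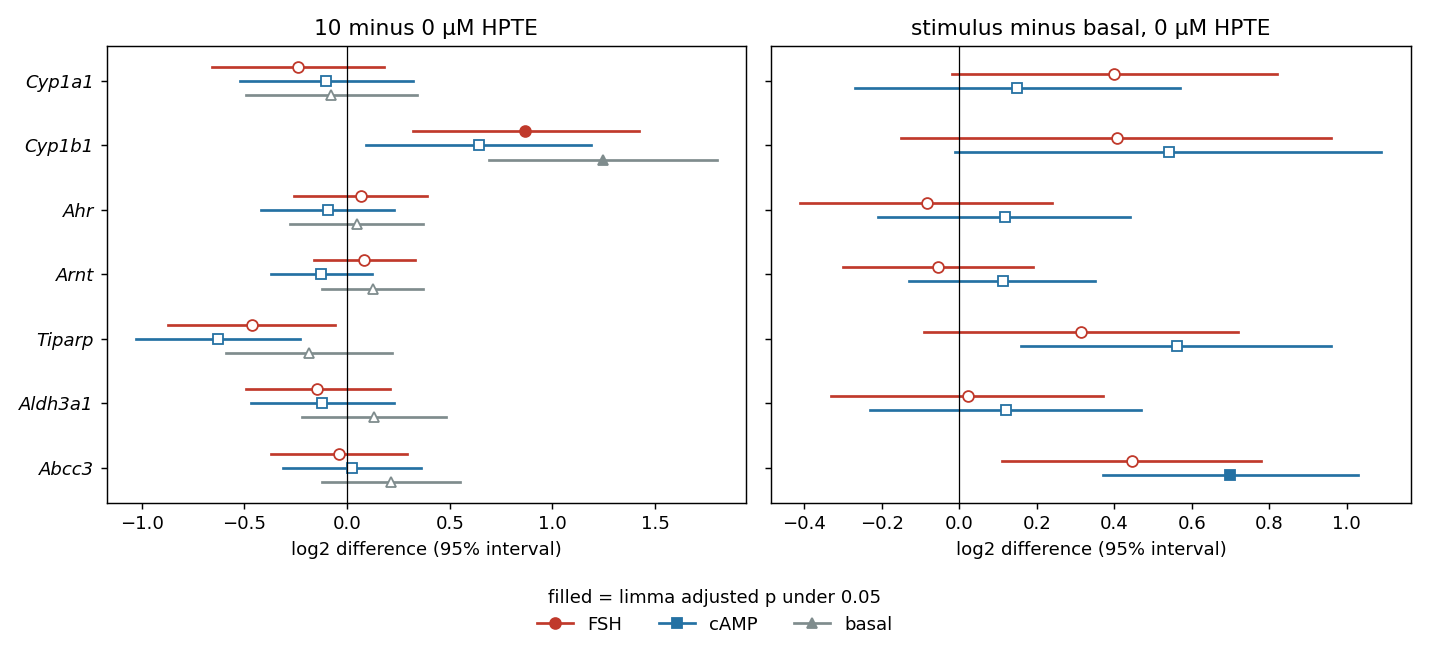
Log2 differences with 95% intervals from the limma fit for the 7 genes (brighter probe set), at 10 minus 0 µM HPTE with FSH, with cAMP and in basal cells (left), and for FSH and cAMP minus basal cells without HPTE (right); filled symbols passed at an adjusted p under 0.05. Cyp1b1 is filled with FSH and in basal cells, Abcc3 is filled for cAMP, and the intervals of Ahr, Arnt, Cyp1a1 and Aldh3a1 all include 0.

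Comparisons of both stimuli with basal cells share the basal arrays, and HPTE effects share the arrays at 0 µM with the stimulus effects. The median difference of the 7 genes at 10 µM was -0.04 with FSH, -0.10 with cAMP and 0.12 in basal cells, against -0.01, -0.02 and 0.02 over all probe sets. For the stimuli it was 0.32 with FSH and 0.15 with cAMP, against -0.01 and 0.04 over all probe sets.

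The rest of the receptor complex gave few calls. Of 4 measured genes of the cytoplasmic complex and its transport, 1 was called at 10 µM HPTE with FSH: Src, a kinase held by the complex, at 0.51 ± 0.14 (adjusted p = 0.0174), where 8.45% of all probe sets were called. None was called for HPTE with cAMP or in basal cells, or for either stimulus, where 1.69%, 1.02%, 8.06% (FSH) and 7.18% (cAMP) of all probe sets were. Src was 0.60 without the arrays numbered 2 (adjusted p = 0.01), and the counts were the same. The Src call was lost without FSH array 1 at 0 µM (0.37, adjusted p = 0.153), FSH array 2 at 10 µM (0.48, adjusted p = 0.0774) or FSH array 3 at 10 µM (0.46, adjusted p = 0.0956).

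Among 9 measured partners, coactivators and repressors, Nrip1, a nuclear corepressor needed for ovulation, moved in 4 of the 5 main comparisons, against the same shares of all probe sets. It was 0.83 ± 0.12 higher with FSH and 0.93 ± 0.12 higher with cAMP than in basal cells, and at 10 µM HPTE it fell by 1.25 ± 0.12 with FSH and by 0.60 ± 0.12 in basal cells. Its adjusted p was at most 0.00808. Its values without the arrays numbered 2 were 0.80 with FSH and 0.93 with cAMP, and -1.22 for HPTE with FSH, all called. With FSH its arrays read 10.49, 10.43 and 10.18 at 10 µM, against 11.62, 11.67 and 11.56 at 0 µM, with no overlap. The basal call was lost without array 2 at 0 µM (-0.56, adjusted p = 0.0694) or array 3 at 10 µM (-0.54, adjusted p = 0.0656).

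Arnt2, a paralog of Arnt, rose at 10 µM HPTE with FSH by 1.34 ± 0.36 (adjusted p = 0.0165), and its arrays read 9.32, 8.89 and 8.73 at 10 µM, against 7.35, 8.56 and 7.02 at 0 µM. The call was lost without array 1 at 0 µM (1.19, adjusted p = 0.0817), array 3 at 0 µM (1.02, adjusted p = 0.147) or array 1 at 10 µM (1.17, adjusted p = 0.0906), and was 1.79 without the arrays numbered 2 (adjusted p = 0.00149). Ncoa1, a coactivator, was higher with cAMP by 0.39 ± 0.10 (adjusted p = 0.0142), a call lost without basal array 1 (0.33, adjusted p = 0.105) or cAMP array 1 (0.33, adjusted p = 0.102), and was 0.46 without the arrays numbered 2 (adjusted p = 0.00523). Arnt2 was also lower for FSH against basal cells in that fit (-1.49, adjusted p = 0.00852). Epas1, a hypoxia-inducible factor that also pairs with Arnt, passed only without those arrays. HPTE with cAMP gave -0.92 with them and -1.69 without (limma adjusted p = 0.726 and 0.000439). FSH against basal cells gave -1.38 and -2.47 (limma adjusted p = 0.168 and 6.35e-07). HPTE in basal cells does not use those arrays, and its difference was -1.34 in both fits (limma adjusted p = 0.548 and 0.00269). There only the variance shared over groups differed, not the values compared. Ahrr, the receptor's dedicated repressor and itself a classical target, was called in no main comparison, and its means at 10 µM were 6.56 ± 0.21 with FSH, 6.85 ± 0.22 with cAMP and 6.62 ± 0.40 in basal cells, against 6.25 ± 0.46, 6.22 ± 0.25 and 5.95 ± 0.54 without HPTE (SD, n = 3 each).

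Of 10 other genes known as receptor targets, none was called at 10 µM HPTE in basal cells, 1 rose with cAMP, and with FSH 1 rose and 4 fell, where 1.02%, 1.69% and 8.45% of all probe sets were called. The counts with FSH were the same without the arrays numbered 2, and with cAMP Inmt also fell (-1.99, adjusted p = 0.0412). Cyp1a2, the third member of the Cyp1 family, stayed between 4.69 and 4.82 in group means and was not called under any stimulus. The dim second probe set of Ahr, at the 10.8 percentile, had group means of 4.42 to 4.80. Little can therefore be read from Cyp1a2 at this level. The 1 gene called with cAMP was Nqo1, a quinone reductase controlled by both the Ah receptor and the oxidative stress factor Nrf2. Its arrays read 11.34, 10.82 and 11.02 at 10 µM, against 8.99, 9.07 and 8.22 at 0 µM, and the difference was 2.30 ± 0.37 (4.92-fold, adjusted p = 0.00045), and 2.45 without the arrays numbered 2 (adjusted p = 0.00104).

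With FSH the 5 calls among these targets were Inmt, a methyltransferase (-2.60 ± 0.57), Socs2, a suppressor of cytokine signalling (-1.50 ± 0.31), Ereg, an epidermal growth factor receptor ligand (-1.28 ± 0.38), Abcg2, an efflux transporter (-0.83 ± 0.21), and Serpinb2, a plasminogen activator inhibitor (2.27 ± 0.40). Their adjusted p ran from 0.000255 to 0.0297. Without HPTE the same genes were called for FSH against basal cells, at 3.31 for Inmt, 1.40 for Socs2, 1.31 for Ereg, 0.84 for Abcg2 and -2.86 for Serpinb2, 5 of 10 where 8.06% of all probe sets were called. Both sets of values use the same FSH arrays at 0 µM. Of these, cAMP was called for Inmt (4.38), Socs2 (1.01), Abcg2 (0.68) and Serpinb2 (-2.92), 4 of 10 where 7.18% of all probe sets were called.

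Single arrays ended some of these calls. For HPTE with FSH, Abcg2 was lost without array 1 at 0 µM (-0.68, adjusted p = 0.0698) or array 2 at 10 µM (-0.74, adjusted p = 0.0555). Ereg was lost without array 1 or 3 at 0 µM (-1.17 and -0.94) or any array at 10 µM (-1.27, -1.32 and -1.25), with adjusted p of 0.0678 to 0.227. Inmt kept its calls without FSH array 2 at 0 µM, at smaller differences of -1.83 for HPTE and 2.54 for FSH.

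For FSH against basal cells, Abcg2 was lost without FSH array 1 (0.69, adjusted p = 0.0681), and Ereg without FSH array 1 or 3 (1.20 and 0.97) or basal array 2 or 3 (1.19 and 1.32), with adjusted p of 0.066 to 0.225. For cAMP against basal cells, Abcg2 was lost without cAMP array 1 or 2 (0.59 and 0.65) or any basal array (0.72, 0.65 and 0.68), with adjusted p of 0.0766 to 0.175. Socs2 was lost there without any 1 of the 6 arrays (0.81 to 1.15, adjusted p = 0.0506 to 0.232). Without both arrays numbered 2, the 5 genes kept their calls for FSH, and cAMP gave 0.65 for Abcg2 and 0.96 for Socs2 (adjusted p = 0.0829 and 0.114). The calls of Serpinb2 held in these comparisons when any 1 array was left out.

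Granulosa markers also moved in 3 of the 5 main comparisons. For FSH and cAMP against basal cells, 8.06% and 7.18% of all probe sets were called. For HPTE with FSH, with cAMP and in basal cells the shares were 8.45%, 1.69% and 1.02%. With FSH against basal cells, 6 of 9 were higher, with sums of 40600 to 53500 with FSH and 24500 to 26300 in basal cells, while of 7 theca and stroma markers 1 was higher and 1 lower and of 9 macrophage markers 1 was lower. At 10 against 0 µM HPTE with FSH, 6 of 9 fell, and their summed intensity was 28000 to 32300 at 10 µM and 40600 to 53500 at 0 µM. Of 9 macrophage and leukocyte markers 1 rose, Cd14 at 1.43 ± 0.25, with sums of 1190 to 3200 at 10 µM and 476 to 1690 at 0 µM, and of 7 theca and stroma markers 1 rose and 1 fell, with sums of 2110 to 3080 at 10 µM and 1440 to 2590 at 0 µM. With cAMP against basal cells, 6 of 9 granulosa markers were higher, with sums of 43000 to 46400 with cAMP and 24500 to 26300 in basal cells, and 1 of 7 theca and stroma markers and 1 of 9 macrophage markers were lower. At 10 against 0 µM HPTE with cAMP, no granulosa and no macrophage marker passed, with granulosa sums of 39600 to 43200 at 10 µM and 43000 to 46400 at 0 µM, while of 7 theca and stroma markers 1 rose and 1 fell. In basal cells at 10 µM none of the granulosa markers and none of the macrophage markers passed, with granulosa sums of 22300 to 23800, against 24500 to 26300 at 0 µM, while 1 of 7 theca and stroma markers fell. With the arrays numbered 2 left out, 7 granulosa markers were higher with FSH and the other granulosa counts were the same. In that fit 0 theca and stroma markers were lower with FSH than in basal cells. With cAMP against basal cells, 2 theca and stroma markers and 2 macrophage markers were lower. The other counts of these lists were the same. Leaving out 1 array gave 5 to 7 granulosa markers with FSH, 4 to 6 with cAMP and 5 to 6 for HPTE with FSH. Of the 8 theca and stroma calls, 3 held when any 1 array was left out, Col3a1 for HPTE with FSH and for cAMP against basal cells and Col1a1 for HPTE with cAMP. By median rank, 1 of 9 granulosa, 2 of 7 theca and stroma and 6 of 9 macrophage and leukocyte markers lay below the middle of an array. Their part in the results above was not tested.

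**Figure D4:**
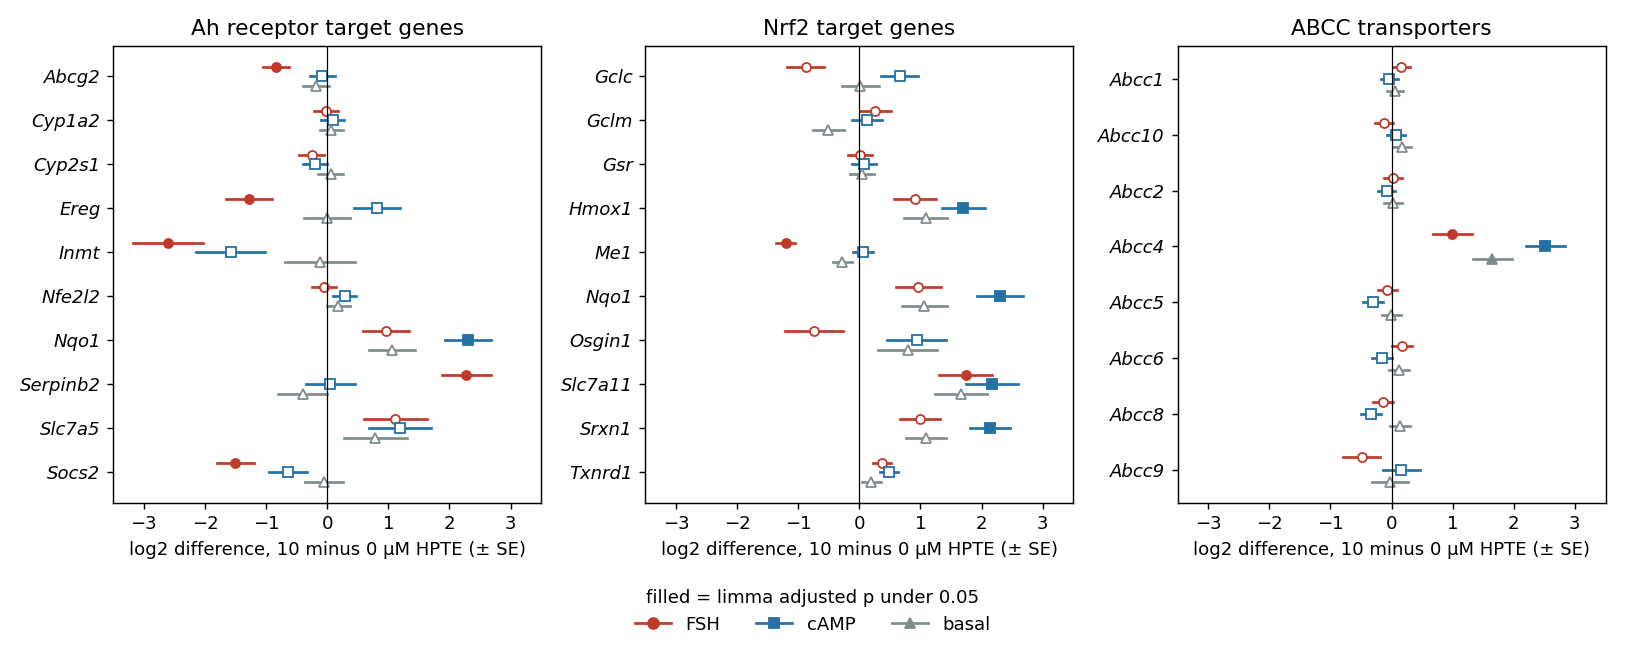
Log2 difference ± SE at 10 minus 0 µM HPTE, with FSH (circles), with cAMP (squares) and in basal cells (triangles), for the measured genes of 3 lists around the pathway; filled symbols passed at an adjusted p under 0.05. Abcc4 is filled under all 3 stimuli, Nqo1, Srxn1, Slc7a11 and Hmox1 are filled with cAMP, and Inmt, Socs2, Ereg and Abcg2 are filled and negative with FSH.

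Abcc3 stood beside 8 measured relatives of the ABCC transporter family, of which 1, Abcc4, was called at 10 µM HPTE with FSH, with cAMP and in basal cells, where 8.45%, 1.69% and 1.02% of all probe sets were. Abcc4 exports cyclic nucleotides and conjugated steroids. Its arrays read 9.26, 9.52 and 9.14 with FSH at 10 µM, against 9.03, 7.69 and 8.21 at 0 µM. With cAMP they read 10.38, 10.52 and 10.27 at 10 µM, against 8.24, 8.37 and 7.01 at 0 µM. In basal cells they read 9.33, 9.25 and 9.12 at 10 µM, against 7.82, 7.73 and 7.20 at 0 µM. No group at 10 µM overlapped with its group at 0 µM.

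The differences of Abcc4 were 1.00 ± 0.32 with FSH, 2.52 ± 0.32 with cAMP and 1.65 ± 0.32 in basal cells, with adjusted p of 0.0479, 1.55e-05 and 0.00477. The cAMP call held in every alternative fit, at 2.76 without the arrays numbered 2. The basal call was lost without array 3 at 0 µM (1.46, adjusted p = 0.0522). The FSH call was lost without the arrays numbered 2 (0.69, adjusted p = 0.284) and when any of 5 arrays was left out, at 0.69 without array 2 and 0.94 without array 3 at 0 µM, and at 1.02, 0.89 and 1.08 without array 1, 2 or 3 at 10 µM (adjusted p = 0.32, 0.148, 0.0989, 0.183 and 0.0793).

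A list of 9 measured genes around catechol estrogens, the products of Cyp1a1 and Cyp1b1, also held genes of estradiol formation and P450 electron supply. With FSH 3 of the 9 were higher, 1 was lower and 5 did not pass, where 8.06% of all probe sets were called. With cAMP 2 were higher, 1 was lower and 6 did not pass, where 7.18% of all probe sets were called. Hsd17b1, which reduces estrone to estradiol, was higher by 4.14 ± 0.63 with FSH and 3.46 ± 0.63 with cAMP, and Gstm1, a glutathione transferase, by 2.10 ± 0.32 with FSH and 1.56 ± 0.32 with cAMP. With those arrays numbered 2 left out, Hsd17b1 was 4.33 and 3.30 higher and Gstm1 2.46 and 1.10 higher with FSH and with cAMP, all called. The third higher with FSH was Por, the reductase that passes electrons to P450 enzymes (1.21), whose call was lost without FSH array 1 or 3 (0.79 and 1.12) or any basal array (1.35, 1.29 and 0.98), with adjusted p of 0.0565 to 0.316, and which was 1.70 without the arrays numbered 2 (adjusted p = 0.000348). Sult1a1, a sulfotransferase of phenols and catechols, was the lower one, at -1.14 with FSH and -0.91 with cAMP. The cAMP call was lost without the arrays numbered 2 (-0.71, adjusted p = 0.0756), cAMP array 1 (-0.71, adjusted p = 0.0824), cAMP array 2 (-0.71, adjusted p = 0.0697) or basal array 3 (-0.68, adjusted p = 0.0911).

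At 10 µM HPTE 1 of these 9 genes fell with FSH, none was called with cAMP and 1 fell in basal cells, where 8.45%, 1.69% and 1.02% of all probe sets were called. With FSH it was Gstm1, at -1.77 ± 0.32 (adjusted p = 0.000319), and -2.12 without the arrays numbered 2. Without those arrays Por (-1.54) and Sult1e1, the estrogen sulfotransferase (-0.63), also fell with FSH, and Gstm1 was higher with cAMP (1.31), with adjusted p of 0.00104, 0.0149 and 0.00488. In basal cells the gene that fell was Sult1a1, which read 4.92, 4.79 and 4.69 at 10 µM, against 5.70, 6.19 and 6.62 at 0 µM, and fell by 1.37 ± 0.22 (adjusted p = 0.000808). The call was lost in a fit of these groups alone (limma adjusted p = 0.0793). Its values at 10 µM lay within the array range of the dim second Ahr probe set, 4.23 to 5.10. The size of the fall is therefore less sure.

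Of 13 aldehyde dehydrogenases beside Aldh3a1, 2 fell at 10 µM HPTE with FSH, 1 rose with cAMP and none was called in basal cells, where 8.45%, 1.69% and 1.02% of all probe sets were called. Aldh1a3, which makes retinoic acid, was 1.51 ± 0.32 lower with FSH and HPTE (adjusted p = 0.00187), and 1.40 ± 0.32 higher with FSH alone than in basal cells, from the same FSH arrays at 0 µM. The call for FSH alone was lost without FSH array 1 (0.98, adjusted p = 0.0598), and without the arrays numbered 2 the values were -1.82 and 1.71, both called. Aldh4a1, of proline breakdown, was the other that fell with FSH (-0.68, adjusted p = 0.0354), a call lost without array 1 or 2 at 0 µM (-0.68 and -0.60) or any array at 10 µM (-0.72, -0.62 and -0.71), with adjusted p of 0.0668 to 0.143, and without the arrays numbered 2 (-0.60, adjusted p = 0.0937). Aldh18a1, of proline synthesis, was the rise with cAMP (0.94, adjusted p = 0.0339), a call lost without array 1 or 3 at 0 µM (0.87 and 0.64) or any array at 10 µM (0.98, 1.02 and 0.82), with adjusted p of 0.0594 to 0.282. It was 1.32 without the arrays numbered 2 (adjusted p = 0.000569).

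The Nrf2 target list, which shares Nqo1 with the receptor's targets, had 4 of 10 genes higher at 10 µM HPTE with cAMP, where 1.69% of all probe sets were called. Besides Nqo1 these were Slc7a11, the cystine transporter (2.17 ± 0.43), Srxn1, which repairs peroxiredoxins (2.14 ± 0.33), and Hmox1, the heme oxygenase (1.70 ± 0.35), with adjusted p of 0.0042, 0.000215 and 0.00538. In the fit without the arrays numbered 2 these 3 were 2.37, 2.31 and 2.20, all called, and Gclc, of glutathione synthesis, also rose (1.19, adjusted p = 0.00273). The Hmox1 call was lost without cAMP array 3 at 0 µM (1.39, adjusted p = 0.0596). On the arrays numbered 1 and 2 alone, Slc7a11 (2.08), Srxn1 (1.81) and Hmox1 (1.45) were not called with cAMP. Their limma adjusted p were 0.0818, 0.0635 and 0.186. With FSH 1 of 10 rose, Slc7a11 at 1.74 ± 0.43, and 1 fell, Me1, the malic enzyme, at -1.21 ± 0.16 (-1.35 without the arrays numbered 2), where 8.45% of all probe sets were called. In basal cells none of 10 was called, where 1.02% of all probe sets were, while without the arrays numbered 2 Slc7a11 (1.66), Srxn1 (1.09) and Hmox1 (1.08) passed at the same differences, with adjusted p of 0.0223, 0.0382 and 0.0255. The list's median difference was 0.32 with FSH, 0.80 with cAMP and 0.49 in basal cells, against -0.01, -0.02 and 0.02 over all probe sets. Without the arrays numbered 2, Gclc also fell with FSH (-1.18, adjusted p = 0.000728). Slc7a11 with FSH was then 1.18 (adjusted p = 0.102), and it was 1.18 without FSH array 2 at 0 µM (adjusted p = 0.103) and 1.44 without FSH array 3 at 10 µM (adjusted p = 0.075).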

How the data were processed

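Transcripts were measured in 36 samples on Affymetrix Rat Genome 230 2.0 arrays after NuGEN amplification of 40 ng of total RNA. The deposited values are linear intensity values per probe set, already normalized by the authors, with RMA named in the submitters' processing notes and ArrayAssist in the design text. The sources used here do not state whether all arrays were normalized in 1 run. Their number limits the precision.

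Log2 intensities of 31042 probe sets, 57 controls left out, were fitted with limma 3.58.1 in R 4.3.3 (12 group means, 24 residual degrees of freedom), with Benjamini-Hochberg adjustment within each of 24 comparisons, and the code was tested on simulated data. Adjusted p-values are limma's, two-sided. Gene symbols came from the platform's table. For a gene with several probe sets the brightest was used, and others are named as such.

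The members, lists, comparisons and naming rule were chosen with earlier results of these data known. All members are reported, genes of the 7 lists where they passed or as counts (at most 6 per comparison and list), and the 3 genes most like a member whose group means span at least 1 log2. In 20 of 21 comparisons without interaction, every pair of equal-numbered arrays had a correlation of deviations over 0.1. The numbers were therefore taken to pair the samples. The exception was FSH against cAMP at 0 µM, where number 2 gave -0.12. In some comparisons the highest correlation between unlike numbers exceeded the lowest between equal numbers. At 10 against 0 µM HPTE these were 0.331 and 0.235 with FSH, 0.357 and 0.155 with cAMP, and 0.4 and 0.407 in basal cells. For FSH and cAMP against basal cells at 0 µM they were 0.148 and 0.432, and 0.292 and 0.364. Where unlike numbers correlated higher, the pairing is less sure, as are calls that passed only with the block. Alternatives were this block, quantile normalization, a filter on dim probe sets, log2(value + 16), array weights, other probe sets, fits of the groups compared alone, and fits without some arrays.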

Additional observations from a re-analysis of the deposited data

How the results depend on the processing

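No called difference of the 7 genes changed sign under any alternative, but calls were both lost and gained. The replicate block moved the number of members called to 1 for FSH against basal cells at 0 µM (0 in the fit as reported), 3 for cAMP against basal cells (1), 2 for 10 against 0 µM HPTE with FSH (1) and 2 with cAMP (0), and left 1 in basal cells. Without the arrays numbered 2 of FSH and cAMP at 0 µM these counts were 0, 2, 0, 1 and 1, and with the block added, an alternative chosen after seeing the data, 1, 2, 1, 2 and 1. Array weights gave 3 for cAMP against basal cells, 0 for HPTE with FSH and 1 with cAMP, and quantile normalization gave 2 for cAMP against basal cells. Arrays numbered 1 and 2 alone gave 0 for HPTE with FSH and 0 in basal cells. Fits of the groups compared alone gave 0 for cAMP against basal cells and 0 for HPTE with FSH and in basal cells, where only the 6 arrays compared set the variance. Leaving out 1 array gave 1 to 2 for cAMP against basal cells, 0 to 1 for HPTE with FSH, 0 to 1 with cAMP and 0 to 1 in basal cells. For the other changes the cause was not tested. Over all probe sets the block called 4984 and 4709 for FSH and cAMP against basal cells, against 2502 and 2228, and 5333, 1810 and 1059 for HPTE with FSH, with cAMP and in basal cells, against 2624, 525 and 316. With array weights 5285 were called for cAMP against basal cells, and 1613 and 1284 for HPTE with cAMP and in basal cells. Fits of the groups alone called 1072, 885, 1273, 62 and 81. Without the arrays numbered 2, HPTE with cAMP called 792, and the arrays numbered 1 and 2 alone called 330 with cAMP and 151 in basal cells. Ahr, Arnt, Cyp1a1 and Aldh3a1 lie at the middle of the intensity range or below, which limits what can be read from them.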
